A study of Mus musculus with 8 samples.

Results

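The count table of isolated gonadotropes was examined for 35 genes that mark the non-endocrine cells of the pituitary, chosen by gene symbol. They make up 35 of the 55523 entries of the table, and comprise 7 markers of the stem and folliculostellate cells, 7 of endothelial cells, 2 of pericytes, 6 of stromal cells, 8 of immune cells and 5 of erythroid cells. Gonadotropes, the pituitary cells that secrete LH and FSH, were sorted by fluorescence as EGFP-positive cells from pituitary glands of Ad4BP-BAC-EGFP mice. In this line a bacterial artificial chromosome drives EGFP from *Ad4BP*, another name of *Nr5a1*, and every sample carried it. There were 4 female and 4 male samples, with no treatment, and the age of the mice is not given in the sources used here. Nothing states whether a sample was 1 mouse or a pool, so p-values measure only the spread between these samples, which may be technical.

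The anterior pituitary holds several hormone-secreting cell types that lie among capillaries, connective tissue and a network of folliculostellate cells. A subset of the latter, which produce SOX2 and SOX9, acts as stem cells that can give rise to the endocrine types. The capillaries are fenestrated, with plasmalemma vesicle-associated protein (PLVAP) forming the diaphragms of their pores, and pericytes, fibroblasts, macrophages and circulating blood cells are found around or inside them. A sort for EGFP is meant to leave these cells out, so RNA of their markers in the sorted samples was quantified gene by gene.

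The total count was between 18774578 and 31302588 per sample, and 3 counts, taken as the floor, corresponded to 0.0918 to 0.147 CPM, the count of a gene scaled to a fixed library total after adjustment. This floor covers counting error only, since PCR-amplified reads without molecular identifiers are not independent molecules. Library totals were adjusted with the TMM factors of edgeR (trimmed means of log ratios) over the 8 samples. Every sample held the gonadotrope transcripts *Lhb* (4164 to 9537 CPM), *Fshb* (1398 to 30668 CPM), *Cga* (12911 to 51210 CPM) and *Gnrhr* (476 to 2168 CPM). *Nr5a1* ranged from 864 to 1263 CPM in the females and from 590 to 795 CPM in 3 of the males, replicates 2 to 4, but was 16.4 CPM in the remaining male, replicate 1. The study left replicate 1 out, and it is called the excluded male here and given apart, whereas replicates 2 to 4 are called the retained males. Hormone transcripts of other endocrine cells were also present in every sample, with *Gh* between 12415 and 143654 CPM, *Pomc* between 10062 and 28863 CPM and *Prl* between 1631 and 18234 CPM, and their part in the results was not tested.

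All 35 markers had at least 3 counts in all 8 samples, and all 35 passed the filter on low counts. Because these are bulk samples, fewer cells of a type and less RNA per cell cannot be told apart. Levels between genes were compared as the mean CPM of the 8 samples per kilobase of exon. On this scale *Cyp2f2*, a cytochrome P450 of folliculostellate cells, was highest at 337 CPM per kb, followed by *Mia* at 290, *Hba-a1* at 108 and *Hbb-bs* at 102. Both orders turned in the means of the females, where *Mia* was 348 and *Cyp2f2* 314 CPM per kb, and *Hbb-bs* 157 and *Hba-a1* 143 CPM per kb. *Nr5a1* itself was 190 CPM per kb on the same scale. The lowest was *Ptprc*, the pan-leukocyte phosphatase CD45, at 0.0762 CPM per kb. Over 32060 entries with a count and a length, *Cyp2f2* stood at percentile 99.7 and *Ptprc* at percentile 19.8. The markers of the stem group had a median percentile of 96.3 and those of the erythroid group 97.4, against 86.6 for endothelial, 69.2 for immune, 60.6 for stromal and 46.8 for pericyte markers. *Alas2*, the erythroid marker that is not a globin gene, stood at percentile 36.5. This order depended on the genes listed. For the further markers described below the medians were 53.6 for stem, 14.6 for erythroid, 78.7 for endothelial, 63.2 for immune, 60.9 for stromal and 61.7 for pericyte genes. The highest of the 8 samples was at least 10-fold above the lowest for 4 markers (*Mia*, *Hba-a1*, *Hbb-bs* and *Hbb-bt*, 11.4%), and less than 3-fold above it for 16. Over all genes tested the 10-fold share was 24.4%, which also counts genes at 0 in their lowest sample.

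**Figure D1:**
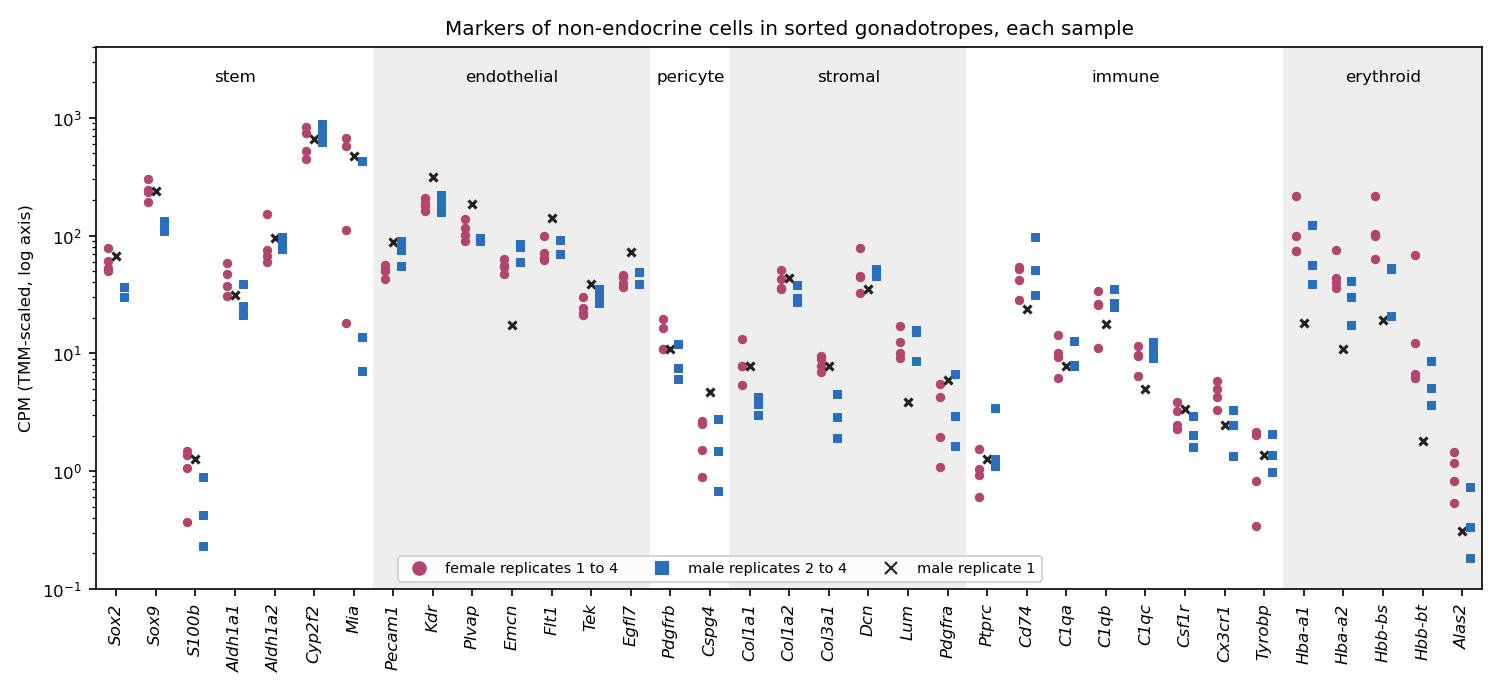
CPM of each of the 35 markers (log axis) in female replicates 1 to 4 (circles), male replicates 2 to 4 (squares) and male replicate 1 (crosses), grouped by cell type. *Cyp2f2* lies between 446 and 882 CPM in all samples, *Mia* spreads from 7.15 to 673 CPM, and *Sox9* is higher in every female than in male replicates 2 to 4.

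To examine whether the markers differed between the sexes, the retained males were compared with the 4 females by the quasi-likelihood test of edgeR over all genes. *Sox9* was the only marker called at an adjusted p under 0.05, and it was higher in females. This is 1 of 35 markers, or 2.86%, and of the 20152 genes tested 2.34% were called, 1.35% higher in females and 0.983% higher in males. With library size alone in place of TMM, the all-gene calls moved from 273 higher in females and 198 higher in males to 675 and 133. No marker was called higher in males by edgeR or by DESeq2, while 1 marker, *Pecam1*, was higher in males at an unadjusted p under 0.05 in edgeR and 2 were so in DESeq2. In either direction 8 markers reached an unadjusted p under 0.05 (22.9%), against 19.9% of all genes tested. The log2 fold change (males over females) was negative for 21 markers and positive for 14, with a median of -0.23 against -0.03 over all genes tested. DESeq2 called 5 markers (14.3%), all higher in females, against 11.6% of all genes and 6.27% higher in females. In 6 markers (*Sox2*, *Sox9*, *Col1a1*, *Col3a1*, *Cx3cr1* and *Hbb-bs*) every female was above every retained male, which is 17.1% of the markers against 10.9% of all genes. No marker was higher in each of these males than in every female, against 11.6% of all genes, and in either direction the groups were apart for 22.5% of all genes. The 63 further markers tested, described below, leaned the other way. Every retained male was above every female for 5 of them, and every female above every retained male for 3.

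**Figure D2:**
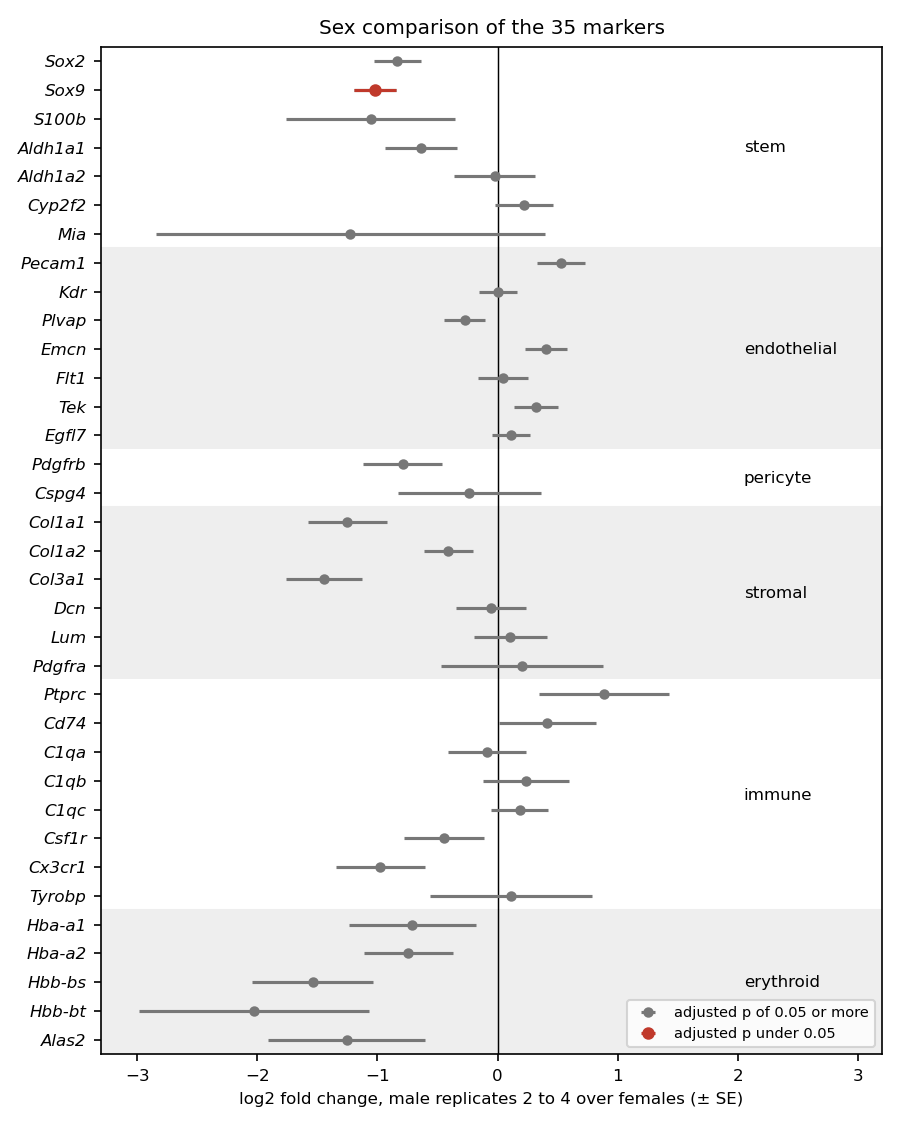
Log2 fold change of male replicates 2 to 4 over female replicates 1 to 4 for each marker, with the standard error as a bar. *Sox9*, at -1.02, is the marker with an adjusted p under 0.05, and all 5 erythroid markers have negative values.

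Among the stem and folliculostellate markers, *Sox9* and *Sox2*, both transcription factors of the SOX family, were at lower levels in male replicates 2 to 4 than in any female. *Sox9* was 304, 195, 242 and 232 CPM in female replicates 1 to 4, and 122, 134 and 109 CPM in male replicates 2 to 4, the order in which values are listed from here on. Its means were 243 ± 45.5 CPM (SD, n = 4) and 122 ± 12.4 CPM (SD, n = 3), and its log2 fold change (males over females) was -1.02 (SE 0.18, edgeR adjusted p = 0.0417). The exact two-sided permutation test of *Sox9* gave p = 0.0286, the smallest value that 3 against 4 samples allow. The adjusted p of *Sox9* rose above 0.05 whichever of the 7 samples was left out, to between 0.0580 and 0.135, with log2 fold changes between -1.09 and -0.88. With the excluded male among the males its adjusted p was 0.438 and its log2 fold change -0.69. Nor was *Sox9* called without the filter on low counts or with the replicate numbers as a block. *Sox2* showed the same order of samples without passing the test. It was 77.9, 49.8, 60.8 and 53.5 CPM in the females and 36.6, 36.6 and 30.1 CPM in male replicates 2 to 4, with a log2 fold change of -0.84 (SE 0.20, edgeR adjusted p = 0.0748). In DESeq2 the adjusted p of *Sox2* was 0.00457 and that of *Sox9* was 6.65e-05.

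In the excluded male *Sox9* was 239 CPM and *Sox2* 66.7 CPM. Both values lay inside the range of the females, and were 1.96-fold and 1.94-fold the mean of the other males. Of the 6 markers that were higher in every female than in the retained males, the excluded male was inside the female range for 4 (*Sox2*, *Sox9*, *Col1a1* and *Col3a1*). Among the 2202 genes of the whole table with this order of samples it was inside the female range for 33.2%.

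The other stem markers varied within each sex. *Cyp2f2* was 745, 521, 829 and 446 CPM in the females, 882, 749 and 625 CPM in the retained males and 662 CPM in the excluded male, so that the groups overlapped over a range of 1.98-fold. *Aldh1a2*, an enzyme that makes retinoic acid from retinal, reached 152 CPM in female replicate 1, with 59.5 to 75.8 CPM in the rest of the females. The retained males lay between these values, at 77.1 to 97.7 CPM. *Aldh1a1*, which catalyses the same step, was 58.6, 37.5, 47.4 and 30.8 CPM in the females and 39.0, 25.1 and 21.1 CPM in the retained males. Female replicate 1 was the highest sample for both enzymes, and neither passed the test (edgeR adjusted p = 0.981 for *Aldh1a2* and 0.294 for *Aldh1a1*). *S100b*, the calcium-binding protein by which folliculostellate cells are classically stained, was between 0.229 and 1.47 CPM, or 5 to 34 counts per sample. Per kb of exon its mean was 0.599 CPM, far under that of *Cyp2f2* in the same samples.

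*Mia*, a small secreted protein with an SH3-like fold, had the widest spread of the 35 markers. It was 579, 18.0, 673 and 112 CPM in the females, 477 CPM in the excluded male, and 7.15, 427 and 13.8 CPM in the retained males. The highest sample was 94.2-fold above the lowest, and high and low samples occurred in both sexes. The gene lies at chr7:27179742-27181157 on the minus strand (GRCm38), and the protein-coding gene model *Gm21983* spans chr7:27168430-27181086 on the same strand. *Gm21983* covers 41.2% of the exon length of *Mia*, and the table gives both, with *Rab4b* and *Mir3101*, as entries of a single assembled locus. The transcript models of *Mia* and *Gm21983* compared here, the lowest-numbered of each in GENCODE M21, share an unbroken run of 410 bases, which is 72.4% of the 566 bases of that of *Mia*. The 69 bases around the point where they part are shown because reads on one side of it cannot tell the entries apart. Lower case marks the last shared bases and capitals the bases after the run, up to the stop codon of *Mia*.
Mia: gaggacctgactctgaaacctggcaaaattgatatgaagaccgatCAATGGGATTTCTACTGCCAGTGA
Gm21983: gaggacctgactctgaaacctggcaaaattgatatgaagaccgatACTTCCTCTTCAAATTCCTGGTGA

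*Gm21983* was low where *Mia* was high. It was 62.4, 509, 3.92 and 604 CPM in the females, 26.9 CPM in the excluded male and 354, 67.5 and 316 CPM in the retained males. *Mia* therefore took 90.3%, 3.41%, 99.4% and 15.6% of the counts of the 2 entries in female replicates 1 to 4, 94.7% in the excluded male, and 1.98%, 86.3% and 4.19% in the retained males. Which entry held most of the counts differed between replicates of a sex. Their sum, which was formed after these values were seen, was 641, 527, 677 and 716 CPM in the females, 504 CPM in the excluded male and 361, 495 and 330 CPM in the retained males. It thus ranged over 2.17-fold, against 94.2-fold for *Mia* and 154-fold for *Gm21983* alone. *Rab4b*, which encodes a small GTPase at the other end of the locus, ranged over 1.37-fold.

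The sex comparison of *Mia* depended on whether these entries were summed. As deposited, its log2 fold change (males over females) was -1.23 (SE 1.62, edgeR adjusted p = 0.750), and leaving out single samples gave values between -5.05 and -0.66. With all entries of the locus summed, the log2 fold change was -0.67 (SE 0.16, adjusted p = 0.0795). The sum of *Mia* and *Gm21983* was higher in every female than in the retained males, with means of 641 ± 81.4 CPM (SD, n = 4) and 395 ± 87.5 CPM (SD, n = 3).

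**Figure D3:**
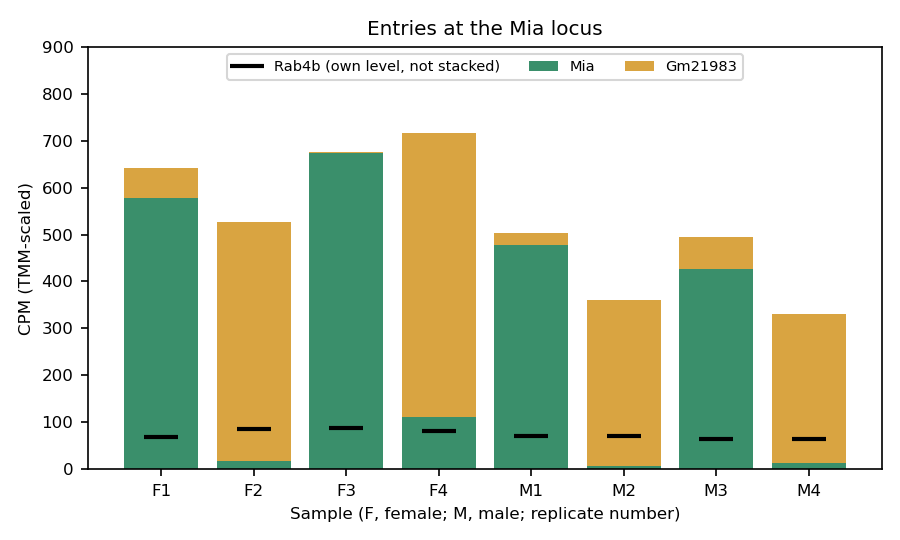
CPM of *Mia* and *Gm21983*, stacked, in each sample (F, female; M, male), with the level of *Rab4b* as a black dash. The stacks lie between 330 and 716 CPM, while the share of *Mia* lies between 1.98% and 99.4%.

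Of the 35 markers, the endothelial ones were the most even group within a sex. Their median coefficient of variation was 16.2% in the retained males and 12.2% in the females, against 30.7% and 29.1% over all 35 markers. In the females this did not hold for the 13 further endothelial genes described below. Their medians were 13.8% in the retained males and 37.9% in the females, against 39.0% and 39.6% over all further markers. None of the 7 was called between the sexes, and 1, *Pecam1*, had an unadjusted edgeR p under 0.05 (0.0322, adjusted p = 0.205). DESeq2 called none of the 7. *Pecam1*, an adhesion molecule of endothelial junctions, was 56.3, 43.1, 49.7 and 52.4 CPM in the females, 90.7, 75.5 and 55.1 CPM in the retained males and 88.2 CPM in the excluded male. Male replicate 4 lay among the females. *Emcn*, a sialomucin of capillary and venous endothelium, was 56.3, 47.2, 63.7 and 54.4 CPM in the females and 84.1, 79.6 and 59.2 CPM in the retained males (log2 fold change 0.40, SE 0.18, edgeR adjusted p = 0.263). Again only male replicate 4 overlapped with the females.

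The receptors of vascular growth factors did not separate the sexes either. *Kdr*, the main signalling receptor for vascular endothelial growth factor, was 210, 177, 190 and 160 CPM in the females and 221, 184 and 158 CPM in the retained males. The log2 fold change of *Kdr* was 0.00 (SE 0.16, edgeR adjusted p = 0.996). *Flt1*, which binds the same ligand, was between 61.8 and 98.6 CPM in the females and between 69.9 and 91.6 CPM in the retained males. *Tek*, the angiopoietin receptor, was between 21.1 and 30.1 CPM in the females and between 26.7 and 35.1 CPM in the retained males. The groups of both overlapped. *Plvap* had the highest level of the group per kb of exon, 57.4 CPM, and was 139, 90.5, 102 and 116 CPM in the females and 95.3, 95.3 and 90.6 CPM in the retained males. *Egfl7*, a secreted endothelial factor, was between 36.6 and 49.5 CPM in these 7 samples, and 11.2% of its exon length is overlapped by other gene models.

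The excluded male was the highest of the 8 samples for 5 of the 7 endothelial markers, *Kdr* (317 CPM), *Plvap* (184 CPM), *Flt1* (141 CPM), *Tek* (38.6 CPM) and *Egfl7* (72.9 CPM), and the mean of the other males was exceeded by between 1.25-fold (*Tek*) and 1.96-fold (*Plvap*). For *Pecam1* it lay inside the range of the other males, and above it with library size alone or upper-quartile factors. *Emcn* was 17.5 CPM in the excluded male, 0.235 times the mean of the other males and the lowest of the 8 samples. The ratio of *Emcn* to *Kdr*, both as CPM per kb, was 0.0921 in the excluded male, between 0.444 and 0.567 in the females and between 0.625 and 0.722 in the retained males. The ratio of *Flt1* to *Kdr* was 0.297 in the excluded male and between 0.233 and 0.315 in the other 7 samples. The endothelial transcripts of the excluded male were thus in unequal proportion to those of the other samples for *Emcn*, and within their range for *Flt1*. The ratio of *Pecam1* to *Kdr* was higher in the retained males (0.506 to 0.596) than in the females (0.352 to 0.474), a pair chosen after the values were seen, and the excluded male, at 0.404, lay inside the range of the females.

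The 2 pericyte markers were low. *Pdgfrb*, the receptor through which pericytes are recruited to vessels, was 19.4, 10.9, 11.0 and 16.3 CPM in the females, 11.9, 6.03 and 7.48 CPM in the retained males and 10.9 CPM in the excluded male. Its log2 fold change was -0.79 (SE 0.33, edgeR adjusted p = 0.241), and male replicate 2 overlapped with the females. *Cspg4*, the proteoglycan NG2 of pericyte membranes, was between 0.674 and 2.76 CPM in the 7 compared samples, or 18 to 71 counts. In the excluded male it was 4.70 CPM, 107 counts, the highest of the 8.

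None of the 6 stromal markers was called by edgeR, with 2 at an unadjusted p under 0.05, and the 2 were called by DESeq2. They were *Col3a1* and *Col1a1*, which encode fibrillar collagens. *Col3a1*, the chain of type III collagen, was 7.80, 6.97, 9.52 and 8.92 CPM in the females and 1.90, 2.88 and 4.49 CPM in the retained males. The groups did not overlap, and the log2 fold change was -1.45 (SE 0.32, edgeR adjusted p = 0.0659). *Col1a1*, a chain of type I collagen, was 13.2, 5.40, 7.77 and 7.79 CPM in the females and 3.69, 4.23 and 2.98 CPM in the retained males, also without overlap (log2 fold change -1.25, SE 0.33, edgeR adjusted p = 0.0945). In DESeq2 the adjusted p was 0.00116 for *Col3a1* and 0.0135 for *Col1a1*. In the excluded male they were 7.82 and 7.86 CPM, inside the range of the females and 2.53-fold and 2.16-fold the mean of the other males.

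The other chain of type I collagen was at a different level and less uneven. *Col1a2* was 35, 42.6, 36.2 and 50.6 CPM in the females, 27.3, 29.3 and 37.9 CPM in the retained males and 43.3 CPM in the excluded male (log2 fold change -0.41, edgeR adjusted p = 0.327). Per kb of exon its mean was 3.04 CPM against 1.01 CPM for *Col1a1*. *Dcn*, which encodes decorin, a proteoglycan that binds collagen fibrils, reached 78.0 CPM in female replicate 1, while the other 6 compared samples ranged from 32.3 to 51.7 CPM. *Lum*, which encodes lumican, a related proteoglycan, was between 8.58 and 17.0 CPM in the 7 compared samples but 3.86 CPM in the excluded male. The log2 fold changes of *Dcn* and *Lum* were -0.05 (SE 0.29) and 0.11 (SE 0.30), with edgeR adjusted p of 0.950 and 0.898. *Pdgfra*, the receptor that marks fibroblasts, was between 1.08 and 6.70 CPM in the 8 samples, with its lowest value in female replicate 4 and its highest in male replicate 4.

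The immune markers comprised genes of antigen presentation and complement and, at lower levels per kb of exon, genes of leukocyte surfaces and signalling. None of the 8 was called by edgeR or DESeq2, with 1, *Cx3cr1*, at an unadjusted p under 0.05 in edgeR. *Cd74*, the invariant chain of MHC class II, was 42.1, 28.6, 52.3 and 54.6 CPM in the females, 97.8, 50.6 and 31.6 CPM in the retained males and 23.7 CPM in the excluded male. The groups overlapped (log2 fold change 0.41, SE 0.40, edgeR adjusted p = 0.646). The genes of the C1q chains, which macrophages and microglia transcribe from a cluster on chromosome 4, did not separate the sexes. *C1qb* was 11.1, 26.5, 25.6 and 33.6 CPM in the females, 35.2, 24.8 and 27.0 CPM in the retained males and 17.9 CPM in the excluded male. *C1qa* was between 6.13 and 14.2 CPM and *C1qc* between 4.96 and 12.5 CPM over the 8 samples. Female replicate 1 had the lowest value of the females for all 3 chains and for *Tyrobp*. None of the 3 differed between the sexes beyond the spread of the samples (edgeR adjusted p between 0.746 and 0.922).

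*Cx3cr1*, the fractalkine receptor of microglia and monocytes, was the immune marker whose groups did not overlap. It was 4.97, 5.84, 3.31 and 4.28 CPM in the females, 3.30, 2.47 and 1.33 CPM in the retained males and 2.46 CPM in the excluded male. The lowest female and the highest retained male were nearly equal, and the log2 fold change was -0.98 (SE 0.37, edgeR adjusted p = 0.208). *Csf1r*, the receptor on which macrophages depend for survival, was between 1.61 and 3.85 CPM over the 8 samples, and 15.1% of its exon length is overlapped by *Hmgxb3* on the other strand. *Ptprc* reached 3.42 CPM in male replicate 2, and ranged from 0.600 to 1.53 CPM over the other 7 samples. *Tyrobp*, the adaptor of myeloid receptors, was between 0.343 and 2.16 CPM, or 8 to 53 counts. Male replicate 2 was the highest male for *Cd74*, *C1qa*, *C1qb*, *Cx3cr1*, *Ptprc* and *Tyrobp*, but not for *C1qc* and *Csf1r*. *C1qc* was 9.21 CPM there, the lowest of the retained males, against 12.5 CPM in male replicate 3. *Csf1r* was 2.95 CPM there, against 3.34 CPM in the excluded male.

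The erythroid markers comprise the 4 adult globin genes and *Alas2*, which encodes the erythroid enzyme of the first step of haem synthesis. The globin genes lie as near-identical copies, *Hba-a1* at chr11:32283511-32284465 and *Hba-a2* at chr11:32296489-32297298 on the plus strand, and *Hbb-bs* at chr7:103826534-103828096 and *Hbb-bt* at chr7:103812524-103813996 on the minus strand (GRCm38). The coding sequences of *Hba-a1* and *Hba-a2* differ at 1 of 429 bases, with an identical run of 380 bases, and encode the same 142 residues. Those of *Hbb-bs* and *Hbb-bt* differ at 1 of 444 bases, with an identical run of 416 bases, and encode the same 147 residues. The reads were 150 bases long, so that a read inside such a run could come from either copy. The 60 coding bases around each difference are shown with the differing base in capitals.
Hba-a1: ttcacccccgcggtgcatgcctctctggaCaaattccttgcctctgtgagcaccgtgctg
Hba-a2: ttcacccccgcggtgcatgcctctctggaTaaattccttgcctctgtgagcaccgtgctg
Hbb-bs: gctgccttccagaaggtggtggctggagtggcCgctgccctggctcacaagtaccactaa
Hbb-bt: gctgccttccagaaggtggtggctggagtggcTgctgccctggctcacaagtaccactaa

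The 4 globin genes had the same highest and the same lowest sample. *Hba-a1* was 73.9, 99.6, 217 and 74.2 CPM in the females, 55.8, 38.4 and 122 CPM in the retained males and 18.2 CPM in the excluded male. *Hba-a2* was 39.5, 43.8, 75.8 and 35.9 CPM in the females, 29.9, 17.5 and 41.2 CPM in the retained males and 10.9 CPM in the excluded male. *Hbb-bs* was 62.8, 103, 216 and 99.6 CPM in the females, 52.9, 20.7 and 52.3 CPM in the retained males and 19 CPM in the excluded male. Each was highest in female replicate 3 and lowest in the excluded male. *Hbb-bt* had the same extremes, with 68.4 CPM in female replicate 3, 1.80 CPM in the excluded male and between 3.63 and 12.3 CPM in the other 6 samples. *Hba-a1* took between 62.4% and 74.7% of the alpha-globin counts, and *Hbb-bs* between 76.0% and 94.1% of the beta-globin counts, and the lowest share of *Hbb-bs* was in female replicate 3.

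**Figure D4:**
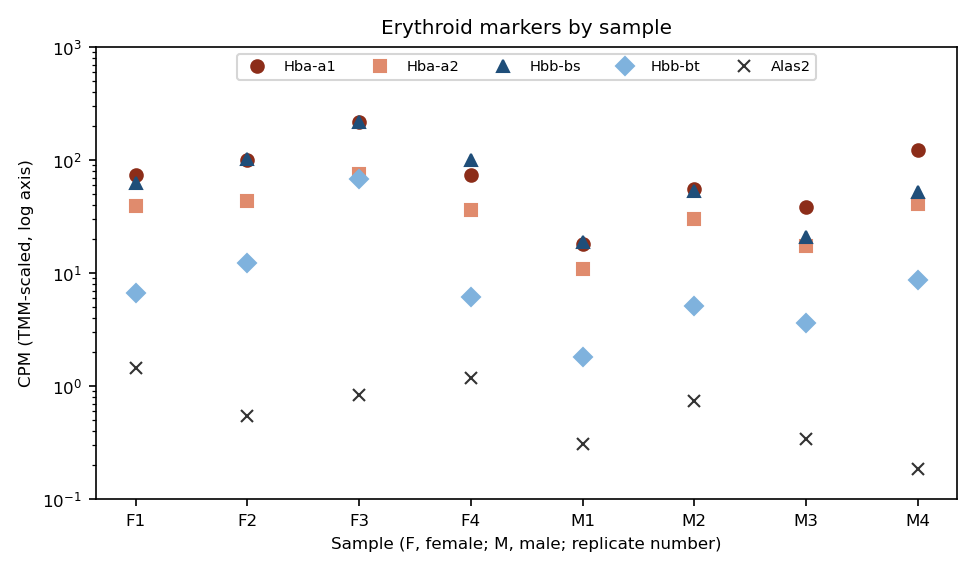
CPM (log axis) of the globin genes and *Alas2* in each sample (F, female; M, male). The globin genes are highest in female replicate 3, with *Hba-a1* at 217 CPM, and lowest in male replicate 1, where *Hba-a1* is 18.2 CPM, while *Alas2* is highest in female replicate 1 and lowest in male replicate 4.

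All 5 erythroid markers had negative log2 fold changes (males over females), between -2.03 (*Hbb-bt*) and -0.71 (*Hba-a1*), and none was called by edgeR. Without female replicate 3 these values were -0.54 for *Hbb-bt* and -0.20 for *Hba-a1*, and leaving out any single sample gave -2.43 to -0.54 and -1.32 to -0.20. *Hbb-bs* was higher in every female than in the retained males (log2 fold change -1.54, SE 0.51, edgeR adjusted p = 0.158), and its adjusted p in DESeq2 was 0.0352. With the copies summed, the log2 fold change was -0.72 for alpha-globin (edgeR adjusted p = 0.475) and -1.61 for beta-globin (adjusted p = 0.174). The ratio of summed alpha- to summed beta-globin CPM was 1.63, 1.24, 1.03 and 1.04 in the females, 1.40 in the excluded male and 1.48, 2.30 and 2.68 in the retained males. Male replicates 3 and 4 therefore held more alpha- relative to beta-globin than any other sample. *Alas2* was between 0.540 and 1.46 CPM in the females, between 0.183 and 0.738 CPM in the retained males and 0.307 CPM in the excluded male, or 4 to 34 counts. Female replicate 3, the highest for the globin genes, was below replicates 1 and 4 for *Alas2*.

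Promoters of an alpha and a beta globin gene are shown as a description of sequence, and their part in the levels of the samples was not tested. RefSeq promoters (GRCm38.p6) were matched for 24 of the 35 markers. Of the 120 bases upstream of each RefSeq start site, only those that lie in no GENCODE exon of the gene are printed, which leaves 117 bases of *Hba-a2* and 83 of *Hbb-bs*. *Hba-a1* and *Hbb-bt*, with 120 and 73 of these bases inside exons, are not printed. Capitals mark the CACCC box, the CCAAT box and the ATATAA element, which are known from globin promoters. The CACCC box of *Hbb-bs* lies upstream of the bases shown.
Hba-a2, chr11:32296372-32296488, plus strand: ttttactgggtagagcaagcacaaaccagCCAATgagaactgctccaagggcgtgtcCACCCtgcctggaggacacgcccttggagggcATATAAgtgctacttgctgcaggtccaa
Hbb-bs, chr7:103827929-103828011, minus strand: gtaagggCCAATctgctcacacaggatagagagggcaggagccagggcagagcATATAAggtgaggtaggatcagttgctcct

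*Hba-a1* and *Hba-a2* share a run of 247 of the 250 upstream bases, whereas the longest run shared by *Hbb-bs* and *Hbb-bt* is 14 bases. The 250 upstream bases of all 4 genes hold the CACCC box, the CCAAT box, the ATATAA element and, farther upstream than the bases shown, GATAA, the core to which GATA factors bind. Searched on both strands, CACCC was found in 52.0% of 32851 promoters, CCAAT in 33.8%, GATAA in 22.6%, ATATAA in 9.10% and all 4 in 0.466%. In *Hbb-bt* CCAAT directly follows its own reverse complement. The upstream bases of *Alas2* hold the CACCC box and the GATAA core on the other strand, and neither the CCAAT box nor the ATATAA element is among the letters of this window. These are matches of letters, and binding was not measured.

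The excluded male, in which *Nr5a1* was low, was then set beside the other males over the whole set of markers. The counts and sums that follow are given as a description, with no test. It was above the range of the retained males for 14 markers (40.0%), below it for 10 (28.6%) and inside it for 11, against 35.9% above and 34.2% below over all genes tested. It was at least 2-fold above the mean of the other males for 5 markers (*S100b*, *Mia*, *Cspg4*, *Col1a1* and *Col3a1*) and at least 2-fold below it for 8 (*Emcn*, *Lum*, *Cd74*, *C1qc* and the 4 globin genes), against 16.9% and 17.7% of all genes. The sums of the cell types lay on different sides of the other males. The summed CPM of the endothelial markers was 859 in the excluded male and between 498 and 667 in the other males, and that of the stem markers 1571 against 876 to 1470. *Mia* was left out of the stem sum after its values were seen. Without it the stem sum was 1095 CPM, inside the range of 862 to 1170 CPM of the other males. *Cyp2f2* alone gave 662 CPM of the 1095 CPM. The sum of *Mia* and *Gm21983* was above the other males, at 504 CPM against 330 to 495 CPM. So was the sum of the further stem genes, at 619 CPM against at most 482 CPM. The latter stayed above with library size alone or upper-quartile factors. The summed CPM of the immune markers was 62.8 against 82.7 to 167, and that of the erythroid markers 50.2 against 80.6 to 224. The stromal sum, at 104 CPM, lay inside the range of 101 to 110 CPM, with the collagen genes above and *Dcn* and *Lum* below the other males. With library size alone it lay above the other males, at 104 CPM against 93.3 to 97.1 CPM, and *Aldh1a2*, *Pecam1* and *Pdgfra* also moved from inside to above their range. The sum of the 2 pericyte markers was 15.6 CPM against 6.71 to 14.6, whereas that of the 10 further pericyte genes was on the other side, at 116 CPM against 211 to 451, with *Rgs5* at 62.1 CPM against 148 to 394.

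**Figure D5:**
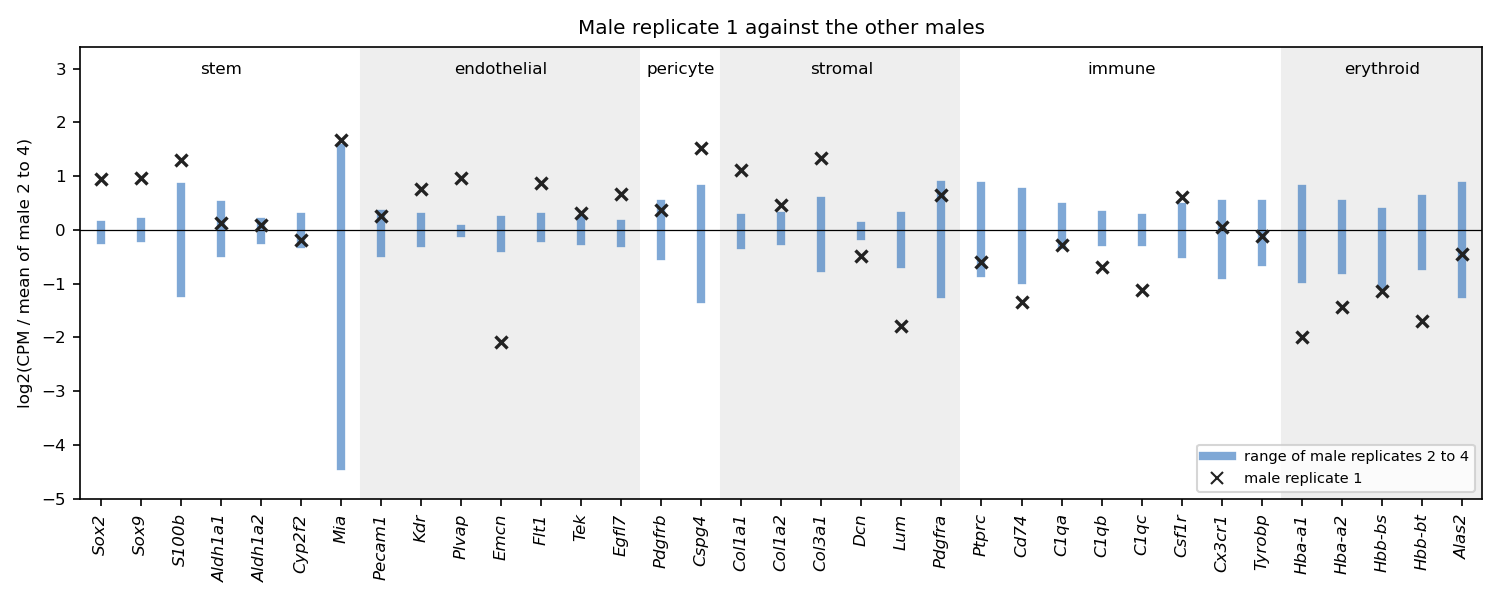
Log2 ratio of each marker in male replicate 1 (crosses) to the mean of male replicates 2 to 4, with the range of those 3 samples as bars. *Kdr*, *Plvap*, *Flt1*, *Tek* and *Egfl7* lie above the bars, and *Emcn*, *Lum*, *Cd74* and the globin genes below them.

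Further markers of the same cell types and of pituicytes, the glia of the posterior lobe, were read from the same fit. Of 72 genes listed, 71 were in the table and 63 passed the filter on low counts, and 1 of the 63 was called (1.59%), against 2.34% of all genes. This was *Mfap4*, a glycoprotein of elastic fibres and a stromal gene, which was 14.3, 6.09, 12.2 and 12.0 CPM in the females, 3.42, 3.33 and 3.26 CPM in the retained males and 3.64 CPM in the excluded male. Its log2 fold change was -1.76 (SE 0.31, edgeR adjusted p = 0.0417), and it was lower in each of these males than in every female. When any single sample other than female replicate 2 was left out, its adjusted p rose above 0.05, to between 0.0785 and 0.143, and it was 0.0238 without female replicate 2. It was 0.0624 without the filter on low counts, 0.0617 with all 8 samples and 0.250 with the replicate block. Unlike *Col1a1* and *Col3a1*, it was not at the level of the females in the excluded male. The log2 fold change was negative for 10 of the 11 further stromal genes, with a median of -1.09, and for 28 of the 63 further markers in all, with a median of 0.05. *Ccdc80*, a secreted matrix protein, was the most abundant further stromal gene per kb of exon, and was 121, 71.0, 91.2 and 79.4 CPM in the females and 31.9, 24.9 and 65.2 CPM in the retained males (log2 fold change -1.18, SE 0.37, edgeR adjusted p = 0.143, called by DESeq2). *Islr*, which came next, was between 20.6 and 40.4 CPM in the 8 samples, with a log2 fold change of 0.01 (edgeR adjusted p = 0.993).

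Among further stem and vascular genes, *Cpxm2* and *Rgs5* had the lowest adjusted p after *Mfap4*, with opposite signs. *Cpxm2*, a carboxypeptidase-like protein, was 199, 127, 149 and 97.3 CPM in the females, 68.8, 56.0 and 58.1 CPM in the retained males and 133 CPM in the excluded male (log2 fold change -1.25, SE 0.25, edgeR adjusted p = 0.0535). As with *Sox9* and *Sox2*, the excluded male lay inside the range of the females. *Rgs5*, a regulator of G-protein signalling that marks pericytes, was 85.6, 124, 111 and 112 CPM in the females, 394, 284 and 148 CPM in the retained males and 62.1 CPM in the excluded male (log2 fold change 1.32, SE 0.32, edgeR adjusted p = 0.0778). The sign of *Rgs5* was opposite to that of the pericyte marker *Pdgfrb*. DESeq2 called both *Cpxm2* and *Rgs5*, the latter as the 1 further marker called higher in males. In edgeR *Rgs5* was called without male replicate 4. *Cpxm2* was called in edgeR with library size alone and with at least 10 counts in every sample. *Kcnj8*, a potassium channel subunit of pericytes, was between 4.26 and 34.8 CPM with overlapping groups. *Aldoc*, an aldolase, was 173, 205, 79.3 and 101 CPM in the females and 329, 299 and 128 CPM in the retained males (edgeR adjusted p = 0.356). *Ramp2*, a coreceptor for adrenomedullin in endothelium, had a wider spread than *Mia*. It was 1.11, 10.8, 114 and 0.0866 CPM in the females, 125 CPM in the excluded male and 134, 132 and 1.01 CPM in the retained males, and its entry shares a locus with another symbol. *Esam*, an adhesion molecule of endothelial junctions, was 9 CPM in female replicate 3, 3.64 CPM in the excluded male and between 53.5 and 77.4 CPM in the other 6 samples.

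The further immune and erythroid genes separated abundant from barely detected transcripts. *H2-Ab1*, a chain of MHC class II, was between 60.7 and 101 CPM in the females, between 85.8 and 180 CPM in the retained males and 68.9 CPM in the excluded male, with its highest value in male replicate 2 as for *Cd74*. *H2-Eb1*, another such chain, was 34.1, 17.7, 35.4 and 41.0 CPM in the females and 22.8, 13.7 and 11.7 CPM in the retained males (log2 fold change -1.02, edgeR adjusted p = 0.177). *Cd3e*, the T cell receptor subunit, had 5 counts in female replicate 1 and 0 in the other samples. *Slc4a1*, *Rhag* and *Hemgn*, the first 2 of which encode membrane proteins of the red cell, had 0 counts in all 8 samples, which allows levels of up to 0.0918 to 0.147 CPM per sample, whereas all 4 globin genes were detected in each. *Klf1*, an erythroid transcription factor, was between 0.738 and 2.82 CPM. *Bpgm*, which makes bisphosphoglycerate in red cells, was between 47.7 and 122 CPM and was lowest in the excluded male, but unlike the globin genes was higher in each of the retained males than in every female (log2 fold change 0.42, edgeR adjusted p = 0.173). Of the pituicyte genes, *Gja1*, the gap junction protein connexin 43, was 77.3, 3.19, 5.51 and 5.84 CPM in the females, 55.0 CPM in the excluded male and 161, 109 and 6.33 CPM in the retained males. *Scn7a*, a sodium channel of glia, was between 6.93 and 39.0 CPM, and neither gene was called (edgeR adjusted p = 0.489 and 0.262).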

How the data were processed

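RNA of EGFP-positive pituitary cells from 4 female and 4 male samples was sequenced, and the authors deposited unnormalized counts per gene in a single table. According to the study's methods, paired-end reads of 150 bases were trimmed with cutadapt (version 4.2), mapped to mm10 with STAR (version 2.5.4a) and counted by featureCounts (1.6.1), all at default settings. The annotation is not given in the sources used here, and 28933 entries carry names of the kind that StringTie gives. By default featureCounts ignores strand and drops reads assigned to more than 1 gene. Whether the deposited counts follow this rule was not tested, since the table gives several symbols at a single assembled locus, as for *Mia*. How reads were divided between overlapping genes and near-identical copies is therefore not known. Here, counts were compared with edgeR 4.0.16 in R 4.3.3 (filterByExpr, TMM factors, quasi-likelihood test, Benjamini-Hochberg adjustment over all genes tested, threshold 0.05), between male replicates 2 to 4 and the 4 females, as replicate 1 was left out by the study. The standard error is the absolute log2 fold change divided by the square root of F. Exact permutation tests used log2(CPM + 1) over 35 splits. The test was checked on simulated data. Exon lengths and overlaps came from GENCODE M21 (GRCm38), and promoters from RefSeq. Python 3.11.15, pandas 2.3.3 and matplotlib 3.10.9 were used for the other steps.

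The markers and lists were chosen with earlier results of these data known. The named genes are all 35 markers, each further marker with an adjusted p under 0.05, the 2 further markers per cell type with the highest mean CPM per kb, and genes that check the labels. Genes named beyond these (*Cd3e*, *Slc4a1*, *Rhag*, *Hemgn*, *Gm21983* and *Rab4b*) were chosen after their values were seen. The alternatives were DESeq2 1.42.0, upper-quartile factors, library size alone, other filters on low counts, all 8 samples, a replicate block, summed globin copies, summed loci, and leaving out each sample. The whole pituitary samples of the study were not used here.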

Additional observations from a re-analysis of the deposited data

Results flagged for a closer look

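In 82 groups of 4 samples (the 35 markers and 6 sums of a cell type in each sex), 5 groups had a sample that lay apart by Dixon's criterion, for which chance gives about 1 in 20 groups, or 4.1. Male replicate 1, the excluded male, had 184 CPM of *Plvap*, while the other males had 90.6 to 95.3 CPM. Male replicate 2 had 3.42 CPM of *Ptprc* (1.10 to 1.27 CPM in the rest of the males) and 12.7 CPM of *C1qa* (7.80 to 7.94 CPM). Female replicate 3 had 68.4 CPM of *Hbb-bt*, while the other females had 6.19 to 12.3 CPM. Female replicate 1 had a stromal sum of 155 CPM, while the other females had 111 to 115 CPM, and *Dcn* and *Col1a1* were also highest there. The cause of these values was not tested.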

How the results depend on the processing

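The replicate numbers come only from the sample names. Deviations of same-numbered samples had correlations between -0.018 and 0.0024, and no male sample correlated best with its own number, so the numbers were not taken as pairs. With the replicate block, 0 genes were called (2954 at an unadjusted p under 0.05 in edgeR), with 0 of the markers and 0 of the further markers. Against 471 genes, 1 marker and 1 further marker, the calls were 2329, 5 and 4 with DESeq2, 808, 3 and 2 with library size alone, 177, 0 and 0 without the filter (4327 at an unadjusted p under 0.05), and 67, 0 and 0 with all 8 samples (1997). With at least 10 counts in every sample 2 further markers were called. Leaving out single samples gave 88 to 171 genes, 0 markers and 0 to 1 further markers, with 6 to 10 markers at an unadjusted p under 0.05. The adjusted p of *Sox9* was 0.0665 without the filter and 0.227 with the block. Library size alone moved the all-gene median log2 fold change from -0.03 to -0.24, brought *Sox2* and *Col3a1* past the threshold (adjusted p = 0.0484 and 0.0375) and moved the stromal log2 ratio of the excluded male from -0.01 to 0.13, from inside to above the range of the other males.

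The sign was kept in every alternative for 21 of the 35 markers. *Sox9*, the called marker, was among them. With library size alone the log2 fold change was -0.21 for *Kdr*, -0.18 for *Flt1*, -0.10 for *Egfl7*, -0.11 for *Lum*, -0.039 for *Pdgfra*, -0.019 for *C1qc* and -0.086 for *Tyrobp*. With all 8 samples it was 0.023 for *Aldh1a2*, 0.059 for *Plvap*, 0.34 for *Cspg4* and -0.15 for *Lum*. With the replicate block it was 0.36 for *Aldh1a2*, 0.25 for *Dcn*, -0.0087 for *C1qb* and -0.16 for *Tyrobp*, and with summed loci -0.21 for *Egfl7*. Leaving out single samples gave -0.15 to 0.38 for *Aldh1a2*, -0.19 to 0.26 for *Dcn*, -0.21 to 0.47 for *Tyrobp*, -0.10 to 0.23 for *Flt1*, -0.13 to 0.12 for *Kdr*, -0.51 to 0.63 for *Pdgfra*, -0.36 to 0.16 for *C1qa*, -0.040 to 0.34 for *Lum*, -0.13 to 0.72 for *Cd74* and -0.85 to 0.14 for *Cspg4*. The cause of these changes was not tested.

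The comparison rests on 3 and 4 samples, and with *S100b*, *Cspg4*, *Col3a1*, *Pdgfra*, *Ptprc*, *Csf1r*, *Cx3cr1*, *Tyrobp* and *Alas2* under 10 CPM in all 8 samples, what the test can detect at these levels was not tested. Single values of *Mia*, *Gm21983* and each globin copy hold only for the division of reads in the deposited counts.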
